A study of Rattus norvegicus with 78 samples.

Results

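The genes described here encode the nuclear subunits of the mitochondrial respiratory chain and of ATP synthase, measured as transcripts in rat sperm preparations. They were all array genes whose symbols begin with Nduf, Uqcr, Atp5, Cox4, Cox5, Cox6, Cox7 or Cox8, together with Sdha, Sdhb, Sdhc, Sdhd, Cyc1, Cycs and Cyct, where a probe set carried 1 symbol only. Where several probe sets measured a gene, the one with the highest mean over all 78 arrays was taken. This gave 81 genes of the 14506 named on the array: 34 with names of complex I, 4 of complex II, 7 of complex III, 1 of cytochrome c, 16 of complex IV, 16 of ATP synthase, and 3 assembly factors of complex I (Ndufaf1, Ndufaf3 and Ndufaf4). Of the testis forms, 2 were measured, Cox6b2 and Cox8c. Cyct shared its probe set with another symbol, and Cox7b2, Cox6b1 and Cyc1 were not analysed here. Among the 81 are 2 symbols of pseudogenes, Ndufs6-ps1 and Cox6c-ps1. The names do not always give the complex: Ndufa4, counted by its name with complex I, is known as a subunit of complex IV, Cox7a2l is known for joining complexes III and IV, and Atp5if1 is the inhibitor of ATP synthase.

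Complexes I to IV pass electrons from NADH and succinate to oxygen. Complexes I, III and IV pump protons across the inner mitochondrial membrane as they do so, complex II does not, and ATP synthase uses the proton gradient to make ATP. Cytochrome c carries electrons from complex III to complex IV. Most of the subunits are encoded in the nucleus. In sperm the mitochondria are wrapped around the midpiece of the tail, and some subunits of complex IV, with cytochrome c, are made there in a testis form from a gene of its own. Sperm carry little RNA and do little transcription, so RNA of other cells in a sperm preparation can contribute to such measurements.

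The samples were RNA of sperm from punctured cauda epididymides of Fischer 344 rats, with 1 array per sample and 78 arrays. The 4 groups were rats given corn oil (20 arrays), rats given 1,2-dibromo-3-chloropropane (DBCP, a fumigant toxic to male germ cells) at 5 mg/kg/d (20 arrays), and rats of each treatment after a recovery period (19 arrays each). The series text gives 3 months of exposure, and how long recovery lasted is not stated in the sources used here. The labels call the samples biological replicates of sperm, while the series title names testis; ages and dates of array processing are not given, so that age, time since exposure and array processing cannot be told apart in the comparisons over time.

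The samples held RNA of sperm and of other cells. The 11 measured sperm tail markers, such as Odf1 and Akap4, averaged 9.55 ± 0.30 (SD, n = 20) on the log2 scale in corn oil rats and 9.83 ± 0.40 (n = 20) in DBCP rats at the end of exposure, and 9.23 ± 0.20 and 9.22 ± 0.26 (n = 19 each) after recovery. The 16 leukocyte markers, such as Ptprc and Cd74, averaged 8.13 ± 0.19 and 8.01 ± 0.22 at the end of exposure, and 8.52 ± 0.23 and 8.36 ± 0.21 after recovery. In corn oil rats after recovery, 1 of 9 markers of epididymal principal cells passed as higher and 2 as lower, by the test described below. Of 6 erythrocyte markers 0 passed as higher and 1 as lower, and of 9 stroma markers 1 as higher and 1 as lower. Over all probe sets 11.5% passed as higher and 12.8% as lower, so these small counts are not read as changes of these cell types. In such bulk samples, fewer cells of a type and less RNA per cell cannot be told apart. There were 6 arrays with a limma array weight under 0.5 (DBCP replicates 2, 13 and 20, DBCP recovery replicates 7 and 15, and corn oil recovery replicate 11). Without them the sperm tail mean of DBCP rats as exposure ended was 9.70.

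The promoters of these genes are shown for Cox8a and Uqcrh, which were higher after recovery in both treatments, and for the testis forms Cox6b2 and Cox8c, which did not pass the test in any comparison. The sequences are RefSeq's in the build GRCr8, from 250 bases before to 50 bases after the start of the gene, and 71 of the 81 genes had one. Capitals mark motifs known for promoters of respiratory genes, searched on both strands: GCGCA, any base and GCGC for NRF-1, CCGGAAG for ETS factors such as GABP, AAGATGGC for YY1 and TGACGTCA for the cyclic AMP response element (CRE). The Cox8a promoter lies at chr1:213833574-213833873 (minus strand), that of Uqcrh at chr5:134790833-134791132 (minus strand), that of Cox6b2 at chr1:78122621-78122920 (plus strand) and that of Cox8c at chr6:127793129-127793428 (plus strand).
Cox8a: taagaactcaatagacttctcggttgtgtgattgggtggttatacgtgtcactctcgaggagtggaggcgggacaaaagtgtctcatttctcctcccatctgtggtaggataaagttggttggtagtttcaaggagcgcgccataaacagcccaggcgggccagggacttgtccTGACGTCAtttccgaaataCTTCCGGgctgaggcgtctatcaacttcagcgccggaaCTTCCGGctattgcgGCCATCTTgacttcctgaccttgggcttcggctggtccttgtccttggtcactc
Uqcrh: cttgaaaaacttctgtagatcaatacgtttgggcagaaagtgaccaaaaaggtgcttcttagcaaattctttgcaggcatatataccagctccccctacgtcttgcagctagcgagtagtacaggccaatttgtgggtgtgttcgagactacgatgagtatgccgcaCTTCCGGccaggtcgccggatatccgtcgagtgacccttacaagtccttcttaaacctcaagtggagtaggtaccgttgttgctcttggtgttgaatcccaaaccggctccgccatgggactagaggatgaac
Cox6b2: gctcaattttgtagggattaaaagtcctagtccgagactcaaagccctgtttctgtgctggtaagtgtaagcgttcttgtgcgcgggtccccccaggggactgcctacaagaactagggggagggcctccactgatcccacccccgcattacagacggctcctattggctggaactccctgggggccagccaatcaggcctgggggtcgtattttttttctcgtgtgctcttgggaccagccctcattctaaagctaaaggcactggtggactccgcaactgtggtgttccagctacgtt
Cox8c: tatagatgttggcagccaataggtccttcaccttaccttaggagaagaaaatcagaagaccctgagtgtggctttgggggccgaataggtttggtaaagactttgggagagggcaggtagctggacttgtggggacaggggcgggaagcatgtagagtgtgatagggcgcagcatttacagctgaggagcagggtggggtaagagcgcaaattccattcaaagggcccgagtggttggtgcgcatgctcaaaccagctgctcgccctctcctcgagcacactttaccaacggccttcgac
In the Cox8a promoter the CRE begins at position -76, ETS motifs at -57 and -19 and the YY1 motif at -4, counted from the start of the gene, and in that of Uqcrh an ETS motif begins at -83. The marked motifs do not overlap. The windows of Cox6b2 and Cox8c held none of these letters.

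The shares of promoters that hold each motif were as follows, given as a description with no test. The NRF-1 motif was found in 14 of 71 (19.7%) against 4.71% of all 27457 promoters of that length and 6.09% of the 19005 of protein-coding genes, the ETS motif in 21 (29.6%) against 9.22% and 11.2%, the YY1 motif in 13 (18.3%) against 3.44% and 3.92%, and the CRE in 4 (5.63%) against 1.91% and 2.22%. At least 1 of the NRF-1, ETS and YY1 motifs was in 40 of 71 (56.3%), against 15.5% of all promoters and 18.8% of those of protein-coding genes. Of the genes that rose after recovery in corn oil rats, 15 of 30 with a promoter held at least 1 of these, and of the others 25 of 41. A match of letters is a description of the window and was not tested for binding.

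Most of the genes were measured above the middle of the array. By mean over all arrays, 62 of the 81 lay above the median probe set, as did 8071 of the 14506 named genes. In corn oil rats at the end of exposure, Cox8a lay at percentile 98.9 of all probe sets, Cox6b2 at 97.4, Cox6c at 95.3 and Cox8c at 93.0. These are ranks of probe set signals and are not read as relative amounts of transcript, since probes differ in response. The mean of the 79 genes other than the testis forms was 7.35 ± 0.13 (SD, n = 20) in corn oil rats and 7.49 ± 0.19 (n = 20) in DBCP rats at the end of exposure, and 7.54 ± 0.15 and 7.52 ± 0.19 (n = 19 each) after recovery.

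**Figure D1:**
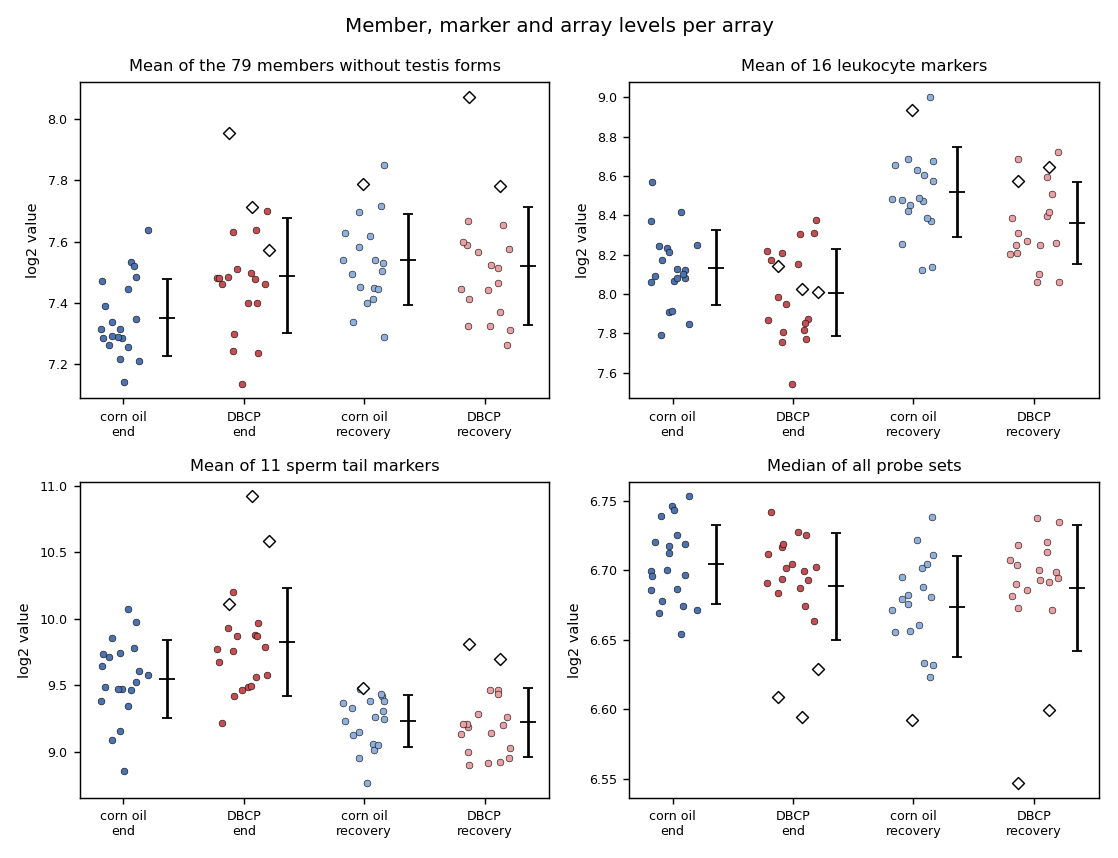
Points are arrays, on a log2 scale, for the mean of the 79 genes other than the testis forms, the means of 16 leukocyte and 11 sperm tail markers, and the median of all probe sets; bars are the group mean ± SD, and open diamonds are the 6 arrays with a weight under 0.5. The mean of the 79 genes is lowest in corn oil rats when exposure ended (7.35), and the leukocyte mean is higher and the sperm tail mean lower after recovery in both treatments.

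The comparison of the times of collection in corn oil rats asks how these transcripts differed without the toxicant. After recovery, 36 of the 81 genes were higher and 1 was lower, and 44 did not pass the threshold (limma, Benjamini-Hochberg over all 29214 probe sets, adjusted p under 0.05). Over all probe sets, 11.5% passed as higher and 12.8% as lower, and with 1 probe set per named gene 16% passed as higher. Of the 62 genes above the median probe set, 31 were higher (50%), against 22.1% of the named genes above it. The median difference of the 81 was 0.17 on the log2 scale, against -0.038 over all probe sets. The genes that rose were spread over the chain: 12 of 34 of complex I, 2 of 4 of complex II, 4 of 7 of complex III, Cycs, 7 of 16 of complex IV, 10 of 16 of ATP synthase and 0 of 3 assembly factors. The ranges of the corn oil groups at the 2 times stood apart for 0 of the 81 genes. The share of all probe sets whose ranges stood apart was not counted, so this is not read as particular to these genes.

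Ndufb6, an accessory subunit of the membrane arm of complex I, changed most. Its lowest, median and highest values were 5.77, 7.01 and 8.18 in corn oil rats at the end of exposure and 7.28, 7.89 and 8.87 after recovery. The ranges overlap, but all 19 of 19 arrays after recovery lay above the earlier mean, and the difference was 0.86 ± 0.17 (SE), or 1.82-fold (limma, adjusted p = 0.000176). Ndufs4, an accessory subunit of the matrix arm, went from a median of 7.99 (7.56 to 9.17) to 8.63 (8.02 to 9.25), a difference of 0.58 ± 0.12 (limma, adjusted p = 0.000193). Ndufc2, another subunit of the membrane arm, went from a median of 7.62 (7.20 to 8.11) to 8.30 (7.88 to 8.96), a difference of 0.57 ± 0.11 with 19 of 19 arrays above the earlier mean (limma, adjusted p = 9.28e-05). Ndufb11, also of the membrane arm, differed by 0.51 ± 0.13. The other 8 genes named for complex I that rose did so by 0.15 to 0.47, and the 22 that did not pass had differences between -0.13 and 0.29.

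In complex II, the succinate dehydrogenase that also belongs to the citric acid cycle, the flavoprotein Sdha rose by 0.24 ± 0.07 (limma, adjusted p = 0.0112) and the membrane anchor Sdhc by 0.21 ± 0.08 (limma, adjusted p = 0.0423). In complex III, Uqcrh, the hinge protein beside cytochrome c1, had values of 6.55, 7.07 and 7.53 (lowest, median, highest) at the end of exposure and of 7.02, 7.73 and 8.54 after recovery. It differed by 0.70 ± 0.11, or 1.63-fold, with 18 of 19 arrays above the earlier mean, and had the smallest adjusted p of the 81 genes (limma, 3.81e-06). The core protein Uqcrc2 rose by 0.38 ± 0.08, Uqcrb by 0.33 ± 0.11 and Uqcr11 by 0.27 ± 0.10. Of the fits that each left out 1 array, Uqcr11 lost its call in 21 (highest adjusted p = 0.0941 by limma, without corn oil recovery replicate 7) and Sdhc in 16 (highest adjusted p = 0.0763 by limma, without corn oil recovery replicate 4). Uqcrb was measured by 3 probe sets, which gave 0.33, 0.31 and 0.31. Cycs, the somatic cytochrome c, rose by 0.25 ± 0.07 with 19 of 19 arrays above the earlier mean (limma, adjusted p = 0.00436).

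In complex IV, which reduces oxygen to water, the small subunits Cox6c and Cox8a led. Cox6c had values of 8.48, 8.83 and 9.52 (lowest, median, highest) at the end of exposure and 8.89, 9.46 and 10.06 after recovery, a difference of 0.56 ± 0.10 (limma, adjusted p = 6.30e-05, 19 of 19 arrays above the earlier mean). Cox8a, the somatic form of subunit VIII, had values of 10.24, 10.73 and 11.15, and then 10.67, 11.27 and 11.87, a difference of 0.48 ± 0.09 (limma, adjusted p = 5.76e-05, 18 of 19). Cox7c rose by 0.39 ± 0.09 and Cox7b by 0.36 ± 0.11. The gene that fell was Cox6c-ps1, annotated as a transcribed pseudogene, from a median of 6.46 to 6.28 (-0.16 ± 0.05, limma, adjusted p = 0.0191); whether its probes also bind Cox6c transcripts was not examined here, so its value is uncertain. The testis forms did not pass: Cox6b2 differed by -0.0043 ± 0.16 (limma, adjusted p = 0.986) and Cox8c by -0.06 ± 0.12 (limma, adjusted p = 0.745).

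In ATP synthase, Atp5f1b, the catalytic beta subunit, differed by 0.46 ± 0.14 (limma, adjusted p = 0.0121, 18 of 19 arrays). Atp5pf of the peripheral stalk rose by 0.38 ± 0.11, Atp5mc3 of the membrane ring by 0.36 ± 0.11 and Atp5f1d of the central stalk by 0.34 ± 0.11. A second probe set of Atp5mc3 gave 0.13 and did not pass, so its rise rests on the first probe set. Atp5pd, which did not pass by the probe set taken (0.10), passed by its second one (0.21). The other 6 that rose did so by 0.17 to 0.33.

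These rises came with changes in the levels of cell type markers. Of the 16 leukocyte markers, 11 were higher and 1 lower after recovery in corn oil rats (Fcer1g 0.91, Cd74 0.77), and of the 11 sperm tail markers 6 were lower (Spa17 -0.77, Akap4 -0.72, Gapdhs -0.56) and 0 higher. With the leukocyte level of each array as a covariate, 0 of the 81 genes passed in either direction, and the median difference was 0.013; Uqcrh was then 0.37 (limma, adjusted p = 0.0657) and Ndufb6 0.40 (limma, adjusted p = 0.251). With the sperm tail level as a covariate, 54 were higher and 6 lower, and Cox6b2 (0.43) and Cox8c (0.29) were then among the higher. With the array median as a covariate, an alternative chosen after the data were seen, 11 were higher. The shares of all probe sets that passed in these covariate fits are not given here. The counts are therefore not read as particular to these genes. Whether RNA of other cells had a part in the rises was not tested. By replicate numbers, arrays 1 to 10 alone gave 24 higher and arrays 11 to 20 alone gave 1, Uqcrh, with medians of 0.17 and 0.15; over all probe sets 4768 and 385 passed.

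**Figure D2:**
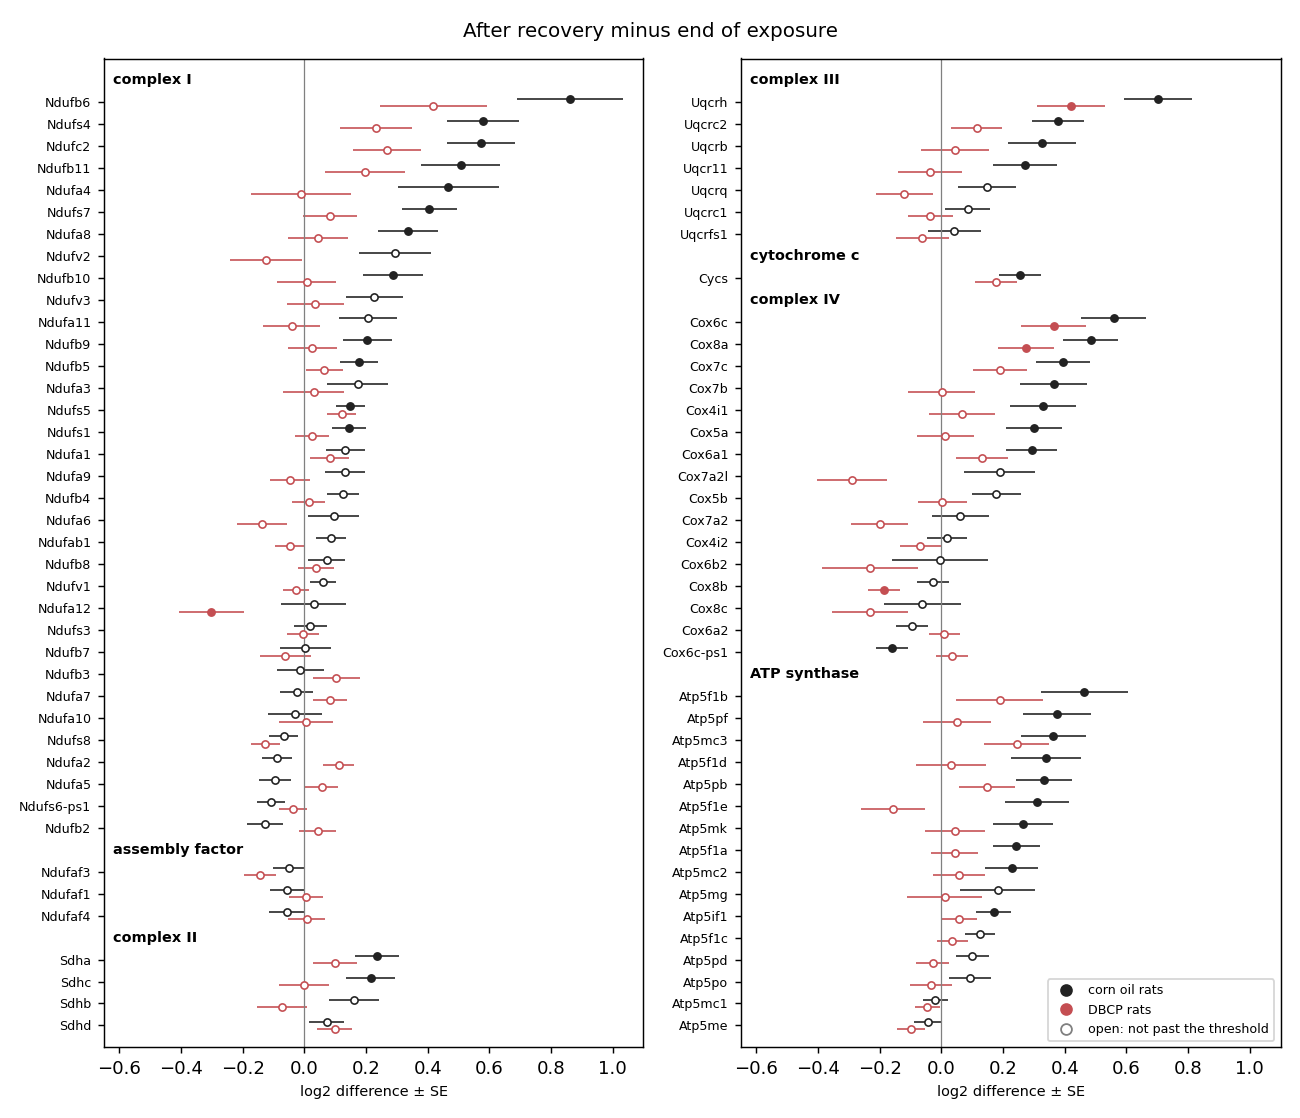
Log2 difference ± SE after recovery minus end of exposure for the 81 genes by complex, in corn oil rats (black) and in DBCP rats (red); filled points pass an adjusted p of 0.05. In corn oil rats 36 genes pass to the right of 0, led by Ndufb6 at 0.86; in DBCP rats 3 do.

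In DBCP rats, 3 genes rose between the end of exposure and recovery and 2 fell, against 7.28% of all probe sets that passed as higher and 6.19% as lower. The median difference was 0.026, and its sign was not stable. Without DBCP recovery replicate 7 alone it was -0.0050, and without the 6 arrays of low weight, which include that replicate, 0.0085. Uqcrh went from values of 6.55, 7.34 and 8.36 (lowest, median, highest) to 7.29, 7.71 and 8.56, a difference of 0.42 ± 0.11 (limma, adjusted p = 0.0048, 18 of 19 arrays above the earlier mean). Cox6c went from 8.04, 9.10 and 9.95 to 8.82, 9.47 and 10.00, a difference of 0.36 ± 0.10 (limma, adjusted p = 0.0109). Cox8a went from 10.24, 10.96 and 11.55 to 10.67, 11.26 and 11.85, a difference of 0.27 ± 0.09 (limma, adjusted p = 0.0288). The groups overlap for each of these genes. These 3 genes were also among the 36 that rose in corn oil rats. Second probe sets of Atp5mc3 (0.34, adjusted p = 0.0242), Cycs (0.18, adjusted p = 0.0441) and Ndufs5 (0.18, adjusted p = 0.0435) passed as higher by limma in DBCP rats, where the probe sets taken for these genes did not. The genes that fell were Cox8b, the form of subunit VIII known from heart and skeletal muscle (-0.19 ± 0.05, limma, adjusted p = 0.00907), and Ndufa12, an accessory subunit of the matrix arm of complex I (-0.30 ± 0.10, limma, adjusted p = 0.0417).

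Here 13 of 16 leukocyte markers were higher and 9 of 11 sperm tail markers lower (Akap4 -1.37). With the leukocyte covariate 1 gene was higher and 15 were lower, and with the sperm tail covariate 22 were higher and 1 lower. Ndufa12, which fell, was then at 0.18, and Cox6b2 (0.61) and Cox8c (0.44) passed as higher with the sperm tail covariate, while with the leukocyte covariate they passed as lower (-0.51 and -0.40). The direction of the testis forms over time thus depended on which marker level was held fixed. Arrays 1 to 10 alone gave 10 higher and 0 lower, and arrays 11 to 20 alone gave 0 and 0. Without DBCP replicate 20 there were 8 higher, without DBCP replicate 3 there were 2, and without DBCP recovery replicate 7 there were 5 lower. The shares of all probe sets that passed in these alternative fits are not given here. Such counts are therefore not read as particular to these genes. Without the 6 arrays of low weight Cox8a was at 0.26 (limma, adjusted p = 0.0503). Cox8a lost its call in 5 of the fits that each left out 1 array (highest adjusted p = 0.0611, without DBCP replicate 7), and Ndufa12 in 16 (highest adjusted p = 0.0752, without DBCP replicate 13), both by limma.

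**Figure D3:**
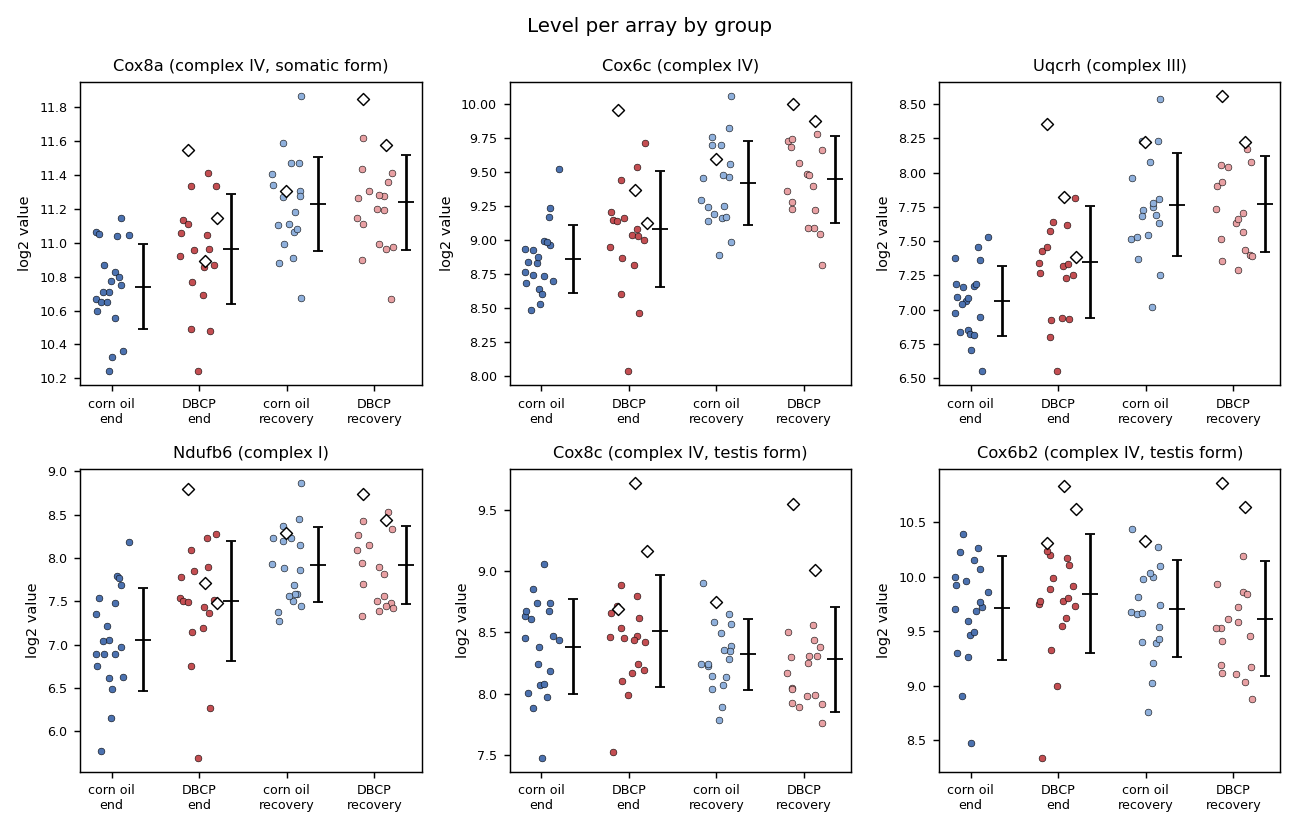
Log2 level on each array by group for 4 genes of the chain and for the testis forms Cox8c and Cox6b2; bars are the group mean ± SD, and open diamonds are the 6 arrays with a weight under 0.5. Cox8a, Cox6c and Uqcrh are higher after recovery in both treatments with overlap between the groups, Ndufb6 passed in corn oil rats (adjusted p = 0.0941 by limma in DBCP rats), and Cox8c and Cox6b2 passed in neither.

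The testis form Cox8c and the somatic form Cox8a moved unequally with time. The per-array difference Cox8c minus Cox8a fell by 0.55 ± 0.13 (SE) in corn oil rats, with 18 of 19 arrays after recovery below the earlier mean (two-sided permutation test over arrays, adjusted p = 0.00088 over 4 tests), and by 0.51 ± 0.14 in DBCP rats, with 17 of 19 below (permutation test, adjusted p = 0.00116). DBCP and corn oil rats differed in it by -0.091 ± 0.15 at the end of exposure and by -0.053 ± 0.12 after recovery (permutation test, adjusted p = 0.653 for both). In arrays 11 to 20 alone neither time difference passed (-0.28 and -0.42, permutation test, adjusted p = 0.335 and 0.269). Cox8a itself rose in both comparisons above, so the pair is no independent support for that rise. Of the 4 pairs of testis and somatic forms, both forms were measured for this 1.

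As exposure ended, DBCP rats were set against their corn oil controls to ask whether the toxicant group differed. By limma, 0 of the 81 genes passed, and 0 of all 29214 probe sets (0% as higher). The smallest adjusted p of the 81 was 0.136, for Atp5f1e, the epsilon subunit of ATP synthase (0.36 ± 0.10, 18 of 20 DBCP arrays above the corn oil mean). The differences leaned to higher values: 69 of 81 were above 0, with a median of 0.13 against -0.023 over all probe sets. At an unadjusted p under 0.05 there were 34, all of them higher, or 42.0%, where 6.91% of all probe sets were higher and 4.68% lower at that limit. Of the 62 above the median probe set, 46.8% were higher at that limit, against 15.3% of the named genes above it. These were 12 of 34 of complex I, 0 of 4 of complex II, 5 of 7 of complex III, 9 of 16 of complex IV and 8 of 16 of ATP synthase, and neither Cycs nor an assembly factor.

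Ndufb6 had the largest difference, 0.44 ± 0.17 (limma, adjusted p = 0.273), with values of 5.69, 7.51 and 8.80 (lowest, median, highest) in DBCP rats. Ndufs4 was at 0.26 ± 0.12 and Ndufa12 at 0.23 ± 0.10, Sdhc at 0.14 ± 0.08, Uqcrb at 0.27 ± 0.11 and Uqcr11 at 0.21 ± 0.10, Cox8a at 0.22 ± 0.09 and Cox7b at 0.24 ± 0.11. Of ATP synthase, Atp5f1d was at 0.33 ± 0.11 and Atp5mc2, of the membrane ring, at 0.17 ± 0.08. Of the testis forms, Cox6b2 was at 0.13 ± 0.15 and Cox8c at 0.13 ± 0.12, and Cycs was at 0.030 ± 0.07. None of these passed the threshold.

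The lean rested in part on few arrays and on the higher replicate numbers. Without the 6 arrays of low weight the median of the 81 was 0.074, with 11 genes at an unadjusted p under 0.05, and without DBCP replicate 20 alone, the array with the highest mean of the 79 genes in its group (7.96), there were 16. Arrays 1 to 10 alone gave a median of 0.038 and 1 gene, and arrays 11 to 20 a median of 0.25 and 43 genes, 42 of them higher. The shares of all probe sets at that limit in these reduced sets are not given here. Counts in them are therefore not read as particular to these genes. The leukocyte markers were lower in DBCP rats in 14 of 16 cases (median -0.14), the erythrocyte markers in 6 of 6 (median -0.20), and the sperm tail markers were higher in 11 of 11 (median 0.26), with 0 of these past the threshold by limma. At an unadjusted p under 0.05 there were 4, 3 and 7 of them. With the leukocyte level as a covariate 37 genes passed as higher, along with 3027 probe sets in all; with the sperm tail level 0 passed and the median was 0.056.

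**Figure D4:**
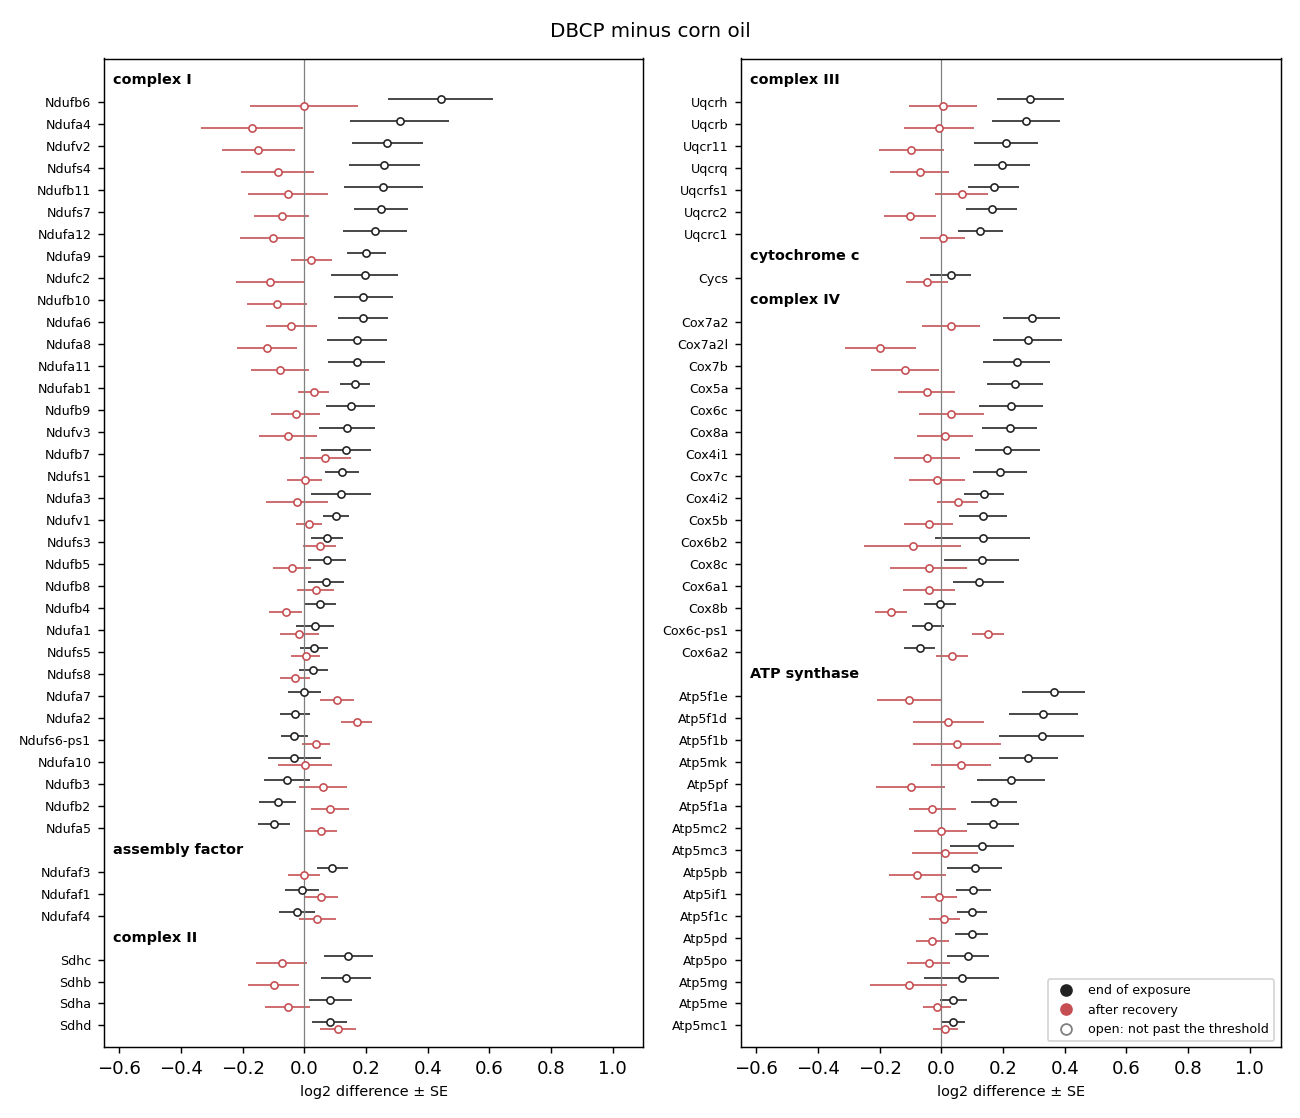
Log2 difference ± SE of DBCP minus corn oil for the 81 genes by complex, as exposure ended (black) and after recovery (red); open points do not pass an adjusted p of 0.05. All points are open; 69 of 81 black and 33 red points lie above 0.

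After recovery, DBCP and corn oil rats differed in 0 of the 81 genes by limma (0% of all probe sets), with 33 above 0 and a median of -0.016. Leaving out 1 array moved this median between -0.049 (without DBCP recovery replicate 7) and -0.0018 (without DBCP recovery replicate 2), and without the 6 arrays of low weight it was -0.052. At an unadjusted p under 0.05 there were 3: Ndufa2 (0.17) and Cox6c-ps1 (0.15) higher and Cox8b (-0.16) lower, named after their values were seen, and without the 6 arrays of low weight there were 8, of which 3 were higher. The 2 higher genes are 2.47% of the 81, where 2.38% of all probe sets were higher and 1.33% lower at that limit. The share of all probe sets at that limit without the 6 arrays is not given here. Cox8a was at 0.012 ± 0.09, Cycs at -0.047 ± 0.07, Cox6b2 at -0.093 ± 0.16 and Cox8c at -0.041 ± 0.13.

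The interaction, which tests if the DBCP difference was unequal at the 2 times, gave 0 genes of 81 by limma (smallest adjusted p = 0.454) and 0% of all probe sets. The interaction was below 0 for 69 of 81, with a median of -0.17 against 0.034 over all probe sets, and 23 had an unadjusted p under 0.05, of which 4 were above 0; over all probe sets 5.97% were above 0 and 4.88% below at that limit. For the genes that rose over time in both treatments it was -0.28 ± 0.16 for Uqcrh, -0.19 ± 0.15 for Cox6c and -0.21 ± 0.13 for Cox8a. The larger number of rises in corn oil than in DBCP rats is therefore not shown to be a difference between the treatments for any single gene. This comparison uses the same 4 groups as the others and is no independent observation.

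Genes that work with the chain were counted from lists in the same fit, where 11.5% of all probe sets passed as higher and 12.8% as lower in corn oil rats. In corn oil rats after recovery, 6 of 12 carriers of the inner membrane were higher and 0 lower, among them the ADP/ATP carrier Slc25a5 (0.50 ± 0.10) and the phosphate carrier Slc25a3 (0.50 ± 0.09), which supply ATP synthase. Of the citric acid cycle and pyruvate dehydrogenase, 6 of 15 were higher and 0 lower, such as Idh3g (0.36), Mdh2 (0.33) and Ogdh (0.29). Of assembly factors, 2 of 14 for complex IV were higher (Cox20 0.34, Cmc1 0.25) and 1 lower (Coa4 -0.16), and for the other complexes 2 of 17 were higher (Sdhaf2 0.38, Timmdc1 0.24) and 3 lower (Lyrm7 -0.54). These shares of higher genes, 14.3% and 11.8%, are near that of all probe sets. Of 11 genes of ubiquinone synthesis, 1 was higher (Coq3) and 1 lower (Coq8a). Of 14 regulators of mitochondrial biogenesis, 5 were higher and 2 lower. The coactivator Ppargc1a was at 0.32 ± 0.07, and Yy1, which encodes the factor of the YY1 motif, at 0.21.

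In DBCP rats after recovery, where 7.28% of all probe sets passed as higher and 6.19% as lower, the carriers Slc25a5 (0.29) and Slc25a3 (0.25) rose, 2 of 12. Of the citric acid cycle and pyruvate dehydrogenase 1 of 15 rose, Dld (0.30), a subunit shared by pyruvate and oxoglutarate dehydrogenase. Of the assembly factors of complex IV, 1 of 14 was higher, Cox11 (0.19), and of those of the other complexes 1 of 17 was higher and 3 were lower. Lyrm7, an assembly factor of complex III, was again lower (-0.92 ± 0.17, limma, adjusted p = 4.67e-05), along with Uqcc2 (-0.23) and Uqcc3 (-0.15), and Tmem126a was higher (0.29). Of 11 genes of ubiquinone synthesis 0 passed by limma. At an unadjusted p under 0.05 there were 3, where 7906 of all 29214 probe sets lay under that limit in this comparison. The 3 are therefore not read as particular to this list. Of 14 biogenesis regulators 1 was higher and 1 lower: Gabpa, which encodes the subunit of GABP that binds ETS motifs (0.20), and the mitochondrial DNA polymerase Polg (-0.19). At the end of exposure, 0 genes of these lists passed between DBCP and corn oil rats by limma. At an unadjusted p under 0.05, where 6.91% of all probe sets were higher and 4.68% lower, 8 of 12 carriers were higher, 2 of 15 genes of the citric acid cycle list, 3 of 17 assembly factors of complexes other than IV (with 1 lower), and 0 of the complex IV assembly, ubiquinone and biogenesis lists.

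Within the groups, many of the genes of the chain varied together. After group means were subtracted, each gene was correlated with the mean of the other members over the 78 arrays: the median r was 0.729, 24 of 81 were over 0.8, 57 over 0.5 and 13 below 0, with Cox6a2, the muscle form of subunit VIa, lowest at -0.649. Without the 6 arrays of low weight the median was 0.627. The shares of all named genes over these limits were not counted, so the covariation is not read as particular to the chain. The mean of the 79 genes correlated with the carriers at 0.960, with the citric acid cycle at 0.896, with the leukocyte markers at 0.519, with the sperm tail markers at 0.368 and with the array median at -0.744. Without the 6 arrays these last 3 were 0.493, 0.139 and -0.589. Of the other mitochondrial lists, assembly factors of complexes other than IV were at 0.813 over the 78 arrays. Ubiquinone synthesis was at 0.214, the biogenesis regulators at 0.11 and complex IV assembly at 0.0933. The most alike of the other named genes were Zwint (0.926), Bola3 (0.923), Atp6v1g1 (0.923), Odc1 (0.918) and Uxt (0.915). These values are descriptions over arrays that share a scale and a sample make-up, and carry no test.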

How the data were processed

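Per the labels, sperm were released from punctured cauda epididymides, pelleted, treated with an ammonium chloride lysis buffer and washed, and a kit separated their RNA into large and small fractions; the samples are described as messenger RNA, labelled with biotin. The authors deposited log2 values, 1 per probe set and array, for 29214 probe sets on 78 arrays with 0 missing. The submitters' processing notes name limma; the background correction, normalization and summarisation are not stated in the sources used here. Array medians lay between 6.55 and 6.75, and no further scaling was applied. GEO's platform annotation gave 1 symbol to 15310 probe sets (14506 genes), several to 323 and none to 13581.

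All 4 groups entered 1 linear model with a mean for each group (limma 3.58.1, R 4.3.3, lmFit and eBayes), from which 5 contrasts were taken. Benjamini-Hochberg adjustment ran over the whole table, and the threshold was 0.05. The fit was tested on simulated data. A count of arrays beside a difference is how many arrays of the later or treated group lay past the other group's mean in the direction given. Precision is limited by the number of arrays, with a median SE of 0.060 as exposure ended. The labels call the arrays biological replicates, and the p-values set group differences against the spread between these samples within groups. The pair of Cox8c and Cox8a was compared with a two-sided permutation test of 100000 resamples (SciPy 1.17.1). Of 4 planned pairs 1 could be measured, so the adjustment ran over 4 tests.

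Named in each comparison are, per complex, up to 4 passing members of largest difference or the 2 brightest where none passed, the testis and somatic forms throughout, and of other lists up to 3 passing members; others named were chosen after their values were seen. The members and lists were chosen with earlier results of these data known. Alternatives tried were quantile normalization, arrays centred on their median, a filter on dim probe sets, array weights, leaving out arrays of low weight or each array in turn, a trended robust prior, only a contrast's own groups, the replicate number or the number set (1 to 10, 11 to 20) as a block, each number set alone, 1 or all probe sets per gene, and marker levels or the array median as covariates. Promoters are RefSeq's (GRCr8).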

Additional observations from a re-analysis of the deposited data

How the results depend on the processing

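Counts are of genes higher or lower among the 81, and the causes of the changes were not tested. Shares over all probe sets are not given beside them, so a moved count is not read as particular to these genes. For time in corn oil rats (36 higher, 1 lower), the higher count was 1 with numbers 11 to 20 alone, 0 with the leukocyte covariate and 11 with the array median covariate. Counts that moved less in proportion are not listed. For this comparison these include the higher counts with numbers 1 to 10 alone and with the sperm tail covariate, both given above. The lower count was 0 with quantile normalization, median centring, the filter on dim probe sets (which left 62 genes), either number set alone or the leukocyte covariate, 2 with array weights and 6 with the sperm tail covariate. For time in DBCP rats (3 higher, 2 lower), the higher count was 5 with quantile normalization, 10 with numbers 1 to 10, 0 with numbers 11 to 20, 6 with the mean of all probe sets of a gene, 1 with the leukocyte, 22 with the sperm tail and 7 with the array median covariate; the lower count was 1 with median centring, with the groups of the contrast alone and with the sperm tail covariate, 4 with array weights, 0 with either number set, 15 with the leukocyte and 7 with the array median covariate. For DBCP at the end of exposure, 37 were higher with the leukocyte covariate. Leaving out each array in turn gave 27 to 39 higher and 1 to 2 lower in corn oil rats, 2 to 8 higher and 1 to 5 lower in DBCP rats, and 0 in the other comparisons. The lowest, 27, was without corn oil recovery replicate 7, and the highest, 39, without corn oil replicate 16.

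Same-numbered arrays were not treated as pairs in the main fit. Over the pairs of groups, median correlations of their deviations lay between -0.0768 and 0.0645, and single values between -0.488 and 0.568. These values do not settle whether the numbers pair samples. With the replicate number as a block, 32 genes were higher and 1 lower over time in corn oil rats, with a median of 0.16, and 3 and 2 in DBCP rats, with 0 in the other comparisons. The pair Cox8c minus Cox8a was -0.28 in corn oil and -0.42 in DBCP rats over time with numbers 11 to 20 alone, neither past the threshold, and 0.092 for DBCP after recovery with numbers 1 to 10 alone.

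For the named genes, 83 values under 16 settings gave 1310 alternative values, of which 1135 kept direction and side of the threshold, 63 lost the call, 19 gained it and 93 changed sign; 77 of those 93 were smaller than their standard error in the reported fit. The sign changes follow, as log2 differences, with E for DBCP against corn oil as exposure ended, R for the same after recovery, I for the interaction, C for time in corn oil rats and D for time in DBCP rats. Quantile normalization gave in E Cycs -0.037, in R Atp5mc2 0.015 and Uqcrb 0.027, in I Cycs 0.0059, in C Cox6b2 0.0018, and in D Sdhc 0.018 and Cox7b -0.0044. Median centring gave in R Cox8a -0.0016, in I Sdhd -0.0029, in C Cox6b2 0.026 and in D Sdhc 0.00035. Array weights gave in R Atp5f1d -0.0080 and Cox8a -0.033, and in D Atp5f1d -0.035 and Cox7b -0.049. Without the arrays of low weight, E gave Ndufaf4 0.00011, R Atp5f1d -0.021, Cox8a -0.040 and Ndufaf3 0.00074, and D Ndufaf4 -0.0092 and Cox7b -0.013. The replicate block gave in R Atp5mc2 0.027, Ndufaf3 0.0096, Uqcrb 0.0013 and Cox8c 0.0080, and in D Sdhc 0.013; the number set block gave in D Sdhc 0.0017.

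Numbers 1 to 10 alone gave in E Cox6b2 -0.030, Ndufaf4 0.081, Sdhd -0.017 and Cox8c -0.039, in R Atp5f1d -0.028, Atp5mc2 0.12, Cox8a -0.025, Cox6b2 0.032, Cox8c 0.067 and Cox7b 0.0017, in I Atp5mc2 0.034, Cox6b2 0.062, Ndufaf4 -0.023 and Cox8c 0.11, and in D Ndufaf4 -0.032 and Sdhc 0.19. Numbers 11 to 20 alone gave in R Ndufaf3 0.058 and Uqcrb 0.088, in I Sdhd -0.025, in C Cox6b2 0.22 and Cox8c 0.12, and in D Atp5f1d -0.20, Atp5mc2 -0.078 and Cox7b -0.25. The leukocyte covariate gave in R Atp5mc2 0.085, Cox6b2 0.030, Ndufa12 0.024, Ndufs4 0.043, Ndufaf4 -0.0035, Sdhc 0.0095, Uqcrb 0.068, Uqcr11 0.0052 and Cox8c 0.030, in C Atp5f1b -0.019, Atp5f1d -0.011 and Ndufaf4 0.055, and in D Atp5f1d -0.29, Atp5mc2 -0.14 and Cox7b -0.26. The sperm tail covariate gave in E Cox6b2 -0.25, Ndufaf4 0.016, Ndufaf3 -0.0019 and Cox8c -0.18, in R Atp5mc2 0.00027 and Ndufaf3 0.0030, in I Cox6b2 0.18, Ndufaf3 0.0048 and Cox8c 0.15, in C Ndufaf3 0.054, Cox6b2 0.43 and Cox8c 0.29, and in D Ndufa12 0.18, Ndufaf4 -0.077, Ndufaf3 0.058, Sdhc 0.11, Cox6b2 0.61 and Cox8c 0.44. The array median covariate, added after the data were seen, gave in E Cox6b2 -0.025, in R Atp5mc2 0.066, Cox6b2 0.040, Ndufaf3 0.017, Uqcrb 0.030 and Cox8c 0.056, in I Cox6b2 0.065 and Cox8c 0.041, and in D Cox7b -0.0051.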
